A study of Homo sapiens with 6 samples.

Results

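Expression of 9 genes of the NRF2 antioxidant response was followed in RNA-seq counts of J82 cells: NFE2L2, KEAP1, NQO1, GCLC, GCLM, HMOX1, TXNRD1, SRXN1 and SLC7A11. They were chosen by symbol, as the regulator, its inhibitor and 7 antioxidant genes usually listed among its targets. The rule itself uses no measured value, but the set was chosen with earlier results of these data known. All 9 members were found among the 57820 genes of the count table, and all 9 passed the filter on low counts. J82 is an established human bladder cancer cell line. There were 3 control libraries, and the study's methods describe these cells as vector controls. The 3 FOXC1 KO libraries came from J82 cells that had received a lentiCRISPR v2 construct, which carries Cas9 and a guide against FOXC1, a forkhead transcription factor gene. Both groups were grown in DMEM with 10% FBS, and the study's methods describe puromycin selection after the knockout and speak of knockout clones. Whether the 3 libraries of a group came from 1 clone, from several clones or from separate cultures is not given in the sources used here, so the p-values measure the spread between these libraries, which may be technical.

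NFE2L2 encodes NRF2, a transcription factor that pairs with small MAF proteins and binds the antioxidant response element (ARE) in front of detoxifying and antioxidant genes. KEAP1 holds NRF2 in the cytoplasm and hands it to a CUL3 ubiquitin ligase for degradation, and oxidants or electrophiles that modify KEAP1 cysteines let NRF2 escape. The control is therefore mainly on NRF2 protein, which RNA-seq does not measure. In bladder cancer and other tumours the pathway is known for its part in the handling of platinum drugs, since glutathione and its enzymes neutralise them.

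To place the regulatory element on these genes, the 1000 bases upstream of the canonical transcript start of each protein-coding gene were searched in GRCh37 on both strands for the ARE core TGACNNNGC. The core was present in 4 of the 9 members and in 32.5% of 19881 such windows, so a match is common and is a description only. The 4 matches are shown because they let the element be read beside genes that were lower (NQO1, TXNRD1 and GCLC) and higher (GCLM) in KO libraries. Capitals mark the core, the strand printed is the one that reads it, and 15 bases are given on either side.
NQO1: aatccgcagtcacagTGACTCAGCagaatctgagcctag
GCLM: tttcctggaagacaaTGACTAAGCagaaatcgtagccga
TXNRD1: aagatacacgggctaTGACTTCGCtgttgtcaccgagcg
GCLC: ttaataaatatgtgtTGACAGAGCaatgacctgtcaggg
The NQO1 stretch is chr16:69760895-69760933 on the minus strand, with the core 447 to 455 bases before the start. The GCLM stretch is chr1:94374997-94375035 on the plus strand, with the core 26 to 34 bases before the start. The TXNRD1 stretch is chr12:104609443-104609481 on the plus strand, 91 to 99 bases before the start. The GCLC stretch is chr6:53410746-53410784 on the plus strand, 862 to 870 bases before the start. The core was not in the windows of NFE2L2, KEAP1, HMOX1, SRXN1 and SLC7A11, which says only that these letters are not in that 1000-base window. The forkhead core GTAAACA was present in 10.5% of the windows and in 1 of the 9 members. It lay 394 to 400 bases before the start of TXNRD1, at chr12:104609142-104609178 on the plus strand, with the core again in capitals.
TXNRD1 forkhead core: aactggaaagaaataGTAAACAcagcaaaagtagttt

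The control libraries held 22900531 to 25013311 counts and the KO libraries 18408134 to 25350908, with KO replicate 1 the smallest. FOXC1 transcript was 16.9 to 19.3 CPM in control and 21.1 to 24.1 CPM in KO libraries, where CPM is the read count scaled to library size. Its log2 fold change was 0.30 (edgeR, adjusted p 0.0127), so the transcript of the targeted gene does not check the labels. Per the study, the knockout was checked at the protein level by Western blot, which showed less FOXC1 protein in J82 knockout cells. These counts do not measure protein. Of the urothelial and epithelial markers, KRT7, KRT8, KRT18, KRT19 and GATA3 had 447 to 44072 counts in every library and EPCAM 20 to 53. The other 8, namely KRT5, KRT13, KRT20, UPK1A, UPK1B, UPK2, UPK3A and CDH1, had at most 5. Of the 6 tested markers of this list 5 were called lower in KO libraries, against 8.39% of all tested genes. Their log2 fold changes were -0.86 (EPCAM), -0.70 (KRT19), -0.60 (KRT8), -0.51 (KRT18) and -0.42 (GATA3), while KRT7 (-0.07) was not called. Of 4 mesenchymal markers SPARC was called higher (0.53 as log2 fold change), while VIM (0.30), FN1 (0.01) and CDH2 (-0.11) were not called. Of 8 blood and endothelial markers 2 had enough counts to be tested, and CD68 was not called. CDH5 was called higher, with 0, 0 and 1 counts in control against 18, 18 and 26 in KO libraries, and the other markers found had at most 9 counts. In bulk RNA, fewer cells of a type and less RNA per cell cannot be told apart. These markers moved with the same groups as the genes below, and their part in the results was not tested.

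To ask whether FOXC1 disruption went with a change of the antioxidant programme, each gene was compared between the groups with edgeR. Called genes had to change by more than 1.3-fold with an adjusted p under 0.05. NQO1 and HMOX1 were called lower in KO libraries and no member was called higher. Among all 15647 tested genes, 8.39% were called lower and 7.57% higher. By the adjusted p alone 6 of the 9 members passed, against 29.4% of all tested genes. Of these, NQO1, HMOX1, TXNRD1 and GCLC were lower in KO libraries, while GCLM and KEAP1 were higher. The 3 KO libraries lay entirely above or entirely below the 3 control libraries for 5 members, against 41.3% of all tested genes. The median log2 fold change of the members was -0.02 and that of all tested genes -0.001. The 9 genes thus did not move in 1 direction.

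NFE2L2 (ENSG00000116044.11, chromosome 2, 178083395 to 178257484, minus strand) had 101.5, 116.3 and 107.9 CPM in control replicates 1 to 3. Its KO values were 98.2, 106.4 and 116.1 CPM. The groups overlapped, with means of 108.6 ± 7.42 and 106.9 ± 8.99 CPM (SD, n = 3). On the log2 scale the difference was -0.02 (edgeR, SE 0.076 and adjusted p 0.866), with a 95% interval from -0.18 to 0.13. A change of NFE2L2 transcript past 1.3-fold, which is 0.38 on the log2 scale, was outside that interval. The annotation used here is a later release than the one the reads were counted over. It gives 3509 of the 14975 NFE2L2 exon bases as shared with HNRNPA3 on the other strand, which had 8799 to 12922 counts. Whether the counted exons overlapped in the same way was not tested. How the counting treated shared reads is not given in the sources used here.

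KEAP1 (ENSG00000079999.9, chromosome 19, 10596801 to 10614234, minus strand) had 80.0, 66.9 and 73.3 CPM in control libraries. The KO libraries had 82, 89.6 and 81.6 CPM. All 3 KO values lay above the control values, although KO replicate 3 exceeded control replicate 1 by little. The log2 fold change of 0.20 (edgeR, SE 0.077 and adjusted p 0.0481) stayed under the 1.3-fold threshold. DESeq2 gave an adjusted p of 0.057, and the adjusted p was under 0.05 in 2 of 12 alternatives of scaling, tool, filter, replicate block or left-out library, so whether KEAP1 passed depends on the processing. It was 0.275 without control replicate 2, the library with the lowest KEAP1 value.

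**Figure D1:**
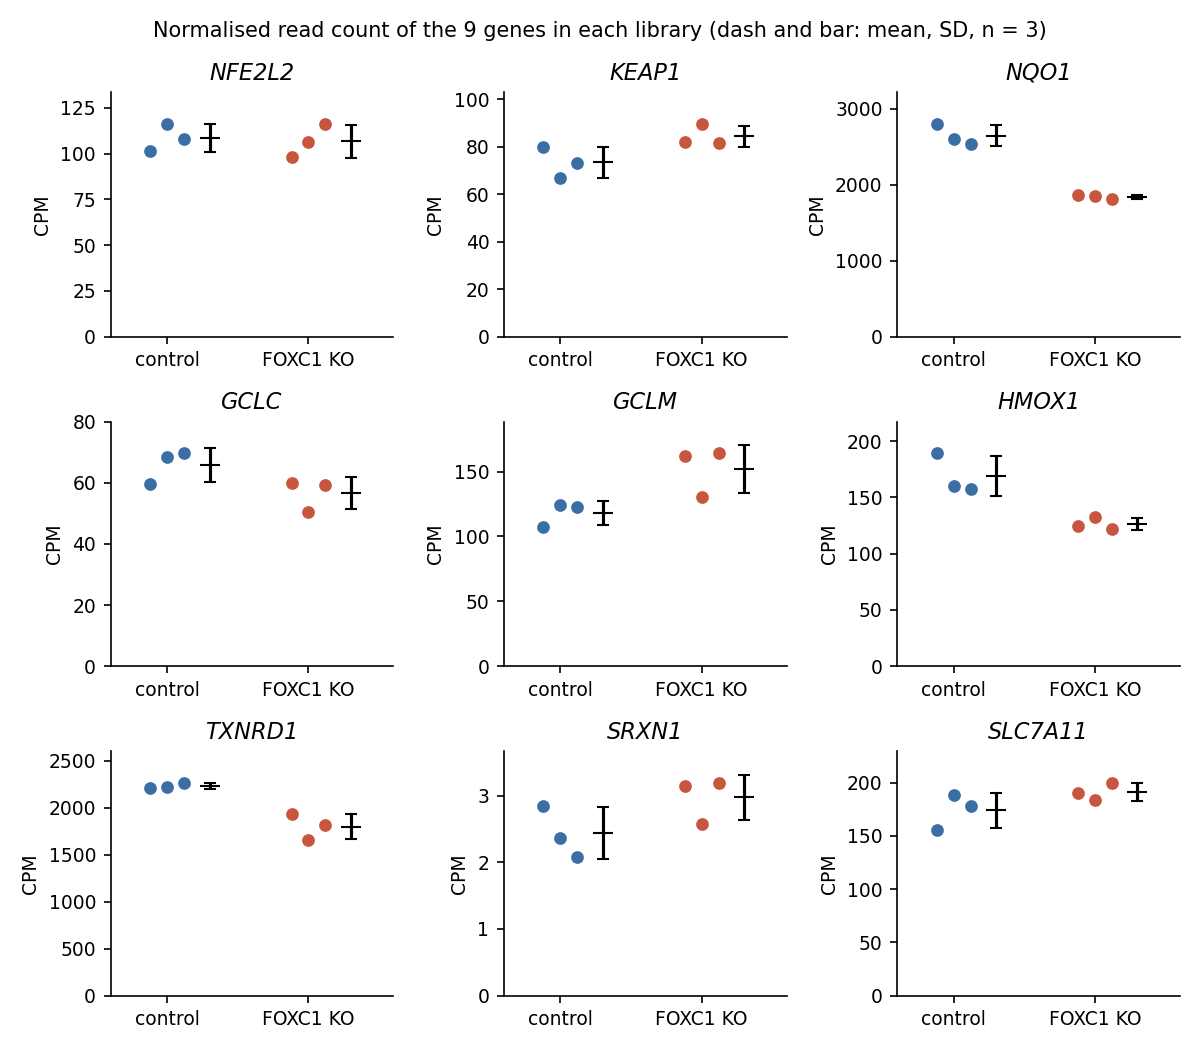
Normalised read count (CPM, linear axis from 0, a scale of its own in each panel) of the 9 genes in the 3 control libraries (blue) and the 3 FOXC1 KO libraries (red), with the mean and SD beside the points. NQO1, HMOX1 and TXNRD1 lie lower in all 3 KO libraries, KEAP1 and GCLM lie higher, and the groups overlap in the other 4 panels.

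NQO1 encodes the quinone reductase NAD(P)H dehydrogenase 1, which reduces quinones in a single step and is a standard readout of NRF2 activity. NQO1 (ENSG00000181019.8, chromosome 16, 69740899 to 69760571, minus strand) had 2802.5, 2610.0 and 2534.2 CPM in control libraries. KO replicates 1 to 3 had 1859.9, 1850.7 and 1807.6 CPM. The groups were widely apart, and the KO libraries lay closer together than the controls. The mean fell in KO libraries, from 2648.9 ± 138.3 to 1839.4 ± 27.9 CPM (SD, n = 3), which is -0.53 as log2 fold change (edgeR, SE 0.072, 95% interval -0.67 to -0.38 and adjusted p 1.63e-06). With 34232 to 64483 reads per library, counting error is small beside the spread between libraries. In control cells NQO1 ranked 15 of all tested genes by CPM. The call held in 12 of 12 alternatives that changed the scaling, the tool, the filter on low counts or the replicate block or left out a library. In an edgeR test of whether the change exceeds 1.3-fold, NQO1 did not pass (adjusted p 0.0857).

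HMOX1 encodes the inducible haem oxygenase, which opens the haem ring and releases iron, carbon monoxide and biliverdin. HMOX1 (ENSG00000100292.12, chromosome 22, 35776354 to 35790207, plus strand) had 189.1, 160.5 and 157.4 CPM in control libraries. Its KO values were 124.3, 132.9 and 122.3 CPM. The groups did not overlap, and control replicate 1 was the highest library. The mean fell in KO libraries, from 169.0 ± 17.5 to 126.5 ± 5.61 CPM (SD, n = 3), which is -0.42 as log2 fold change (edgeR, SE 0.075 and adjusted p 8.8e-05). Without control replicate 1 the log2 fold change was -0.34 (adjusted p 0.000161) and under the fold threshold, and the direct test against 1.3-fold gave an adjusted p of 0.8. HMOX2, the constitutive form, had a log2 fold change of 0.01 (adjusted p 0.921), and the count ratio of HMOX1 to HMOX2 was 2.47 ± 0.16 in control and 1.83 ± 0.0708 in KO libraries (SD, n = 3).

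TXNRD1 encodes the cytosolic thioredoxin reductase, a selenoprotein that recharges thioredoxin with NADPH. TXNRD1 (ENSG00000198431.11, chromosome 12, 104609557 to 104744085, plus strand) had 2206.9, 2219.3 and 2262.4 CPM in control libraries. In KO libraries it had 1928.1, 1657.9 and 1810.3 CPM. The 3 KO values were lower than all control values and more spread. The log2 fold change of -0.31 (edgeR, SE 0.074 and adjusted p 0.00187) is a change of 1.24-fold, so TXNRD1 passed the adjusted p and not the fold threshold. Its adjusted p stayed under 0.05 in 12 of 12 alternatives, and in none did it pass 1.3-fold.

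SRXN1 encodes sulfiredoxin, which repairs overoxidised peroxiredoxins. SRXN1 (ENSG00000271303.1, chromosome 20, 627259 to 633844, minus strand) had only 64, 58 and 53 counts in control and 58, 65 and 75 in KO libraries. The groups overlapped, and the log2 fold change was 0.28 (edgeR, SE 0.173 and adjusted p 0.228), with an interval from -0.07 to 0.64. That interval includes both no change and changes beyond 1.3-fold, so a difference was not detectable with these few counts. In the later annotation used here, 2292 of the 2528 exon bases of SRXN1 are shared with ENSG00000270299. That gene lies on the same strand and had 0 to 3 counts, and its overlap in the counted exons was not tested. Since the treatment of reads that match more than 1 gene is not given in the sources used here, the low level of SRXN1 is uncertain.

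**Figure D2:**
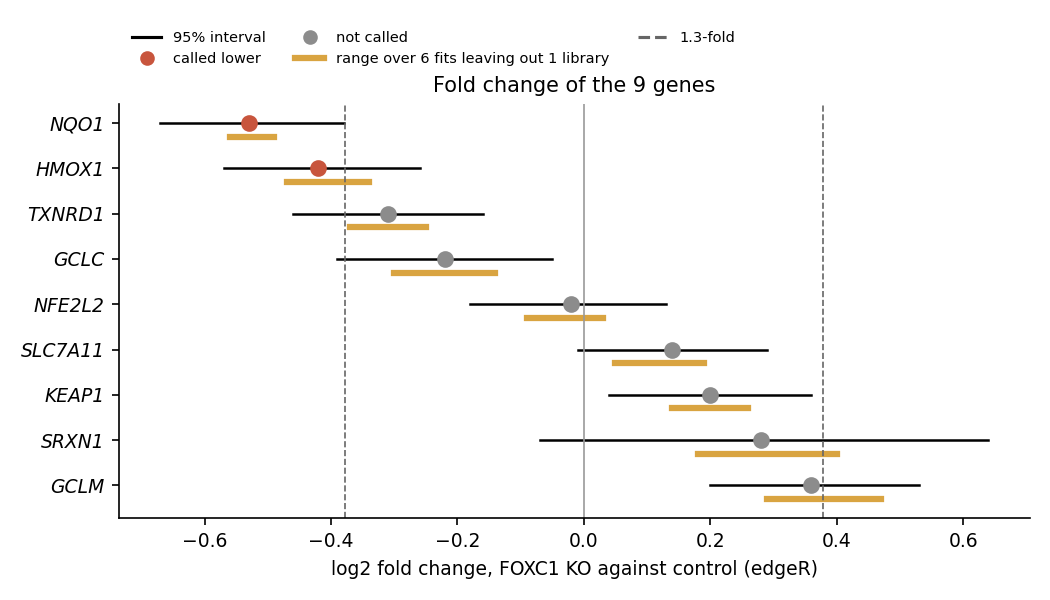
Log2 fold change of the 9 genes (points) with the 95% interval (black line) and the range over the 6 fits that each left out 1 library (yellow line); dashed lines mark 1.3-fold and red points the genes called lower. NQO1 lies beyond the threshold in all 6 of these fits, the ranges of HMOX1, GCLM and SRXN1 (0.18 to 0.40) cross it, and NFE2L2 lies near zero.

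The genes of glutathione synthesis parted. SLC7A11 is the cystine carrier that supplies the cysteine, GCLC is the catalytic and GCLM the modifier subunit of glutamate-cysteine ligase, the rate-limiting enzyme. GCLC (ENSG00000001084.6, chromosome 6, 53362139 to 53481768, minus strand) had 59.5, 68.3 and 69.6 CPM in control libraries. The KO values of GCLC were 59.9, 50.5 and 59.2 CPM. Control replicate 1 was as low as the KO libraries, so the groups overlapped. The log2 fold change of -0.22 (edgeR, SE 0.082 and adjusted p 0.0424) was under the fold threshold. Its adjusted p was 0.0746 with DESeq2 and 0.238 without KO replicate 2, and passed 0.05 in 8 of 12 alternatives.

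GCLM (ENSG00000023909.5, chromosome 1, 94350755 to 94375012, minus strand) had 107.5, 124.1 and 122.4 CPM in control libraries. KO replicates 1 to 3 gave 161.7, 130.5 and 164.0 CPM. All 3 KO libraries were higher, KO replicate 2 by the least. The log2 fold change was 0.36 (edgeR, SE 0.082 and adjusted p 0.00104), a change of 1.29-fold that stayed just short of the threshold. Without KO replicate 2 it was 0.47 and past the threshold. The adjusted p was under 0.05 in 12 of 12 alternatives.

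The ratio of GCLM to GCLC reads within a library needs no scaling, and was chosen after the values were seen. It was 1.81, 1.82 and 1.76 in control libraries. In KO libraries it was 2.70, 2.58 and 2.77. The ratio differed between the groups by far more than the spread within them, at 1.79 ± 0.0316 and 2.68 ± 0.095 (SD, n = 3). Modifier and catalytic subunit transcripts of 1 enzyme thus changed unequally in these libraries.

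SLC7A11 (ENSG00000151012.9, chromosome 4, 139085251 to 139163503, minus strand) had 155.8, 188.0 and 178.4 CPM in control libraries. In KO libraries it had 190.7, 183.6 and 199.8 CPM. The groups overlapped, and the log2 fold change was 0.14 (edgeR, SE 0.074 and adjusted p 0.171), with an interval from -0.01 to 0.29. Exact permutation tests on single members, two-sided, gave p 0.1 for KEAP1, NQO1, GCLM, HMOX1 and TXNRD1, the smallest that 3 against 3 libraries allow, p 0.2 for GCLC, SRXN1 and SLC7A11, and p 0.7 for NFE2L2.

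**Figure D3:**
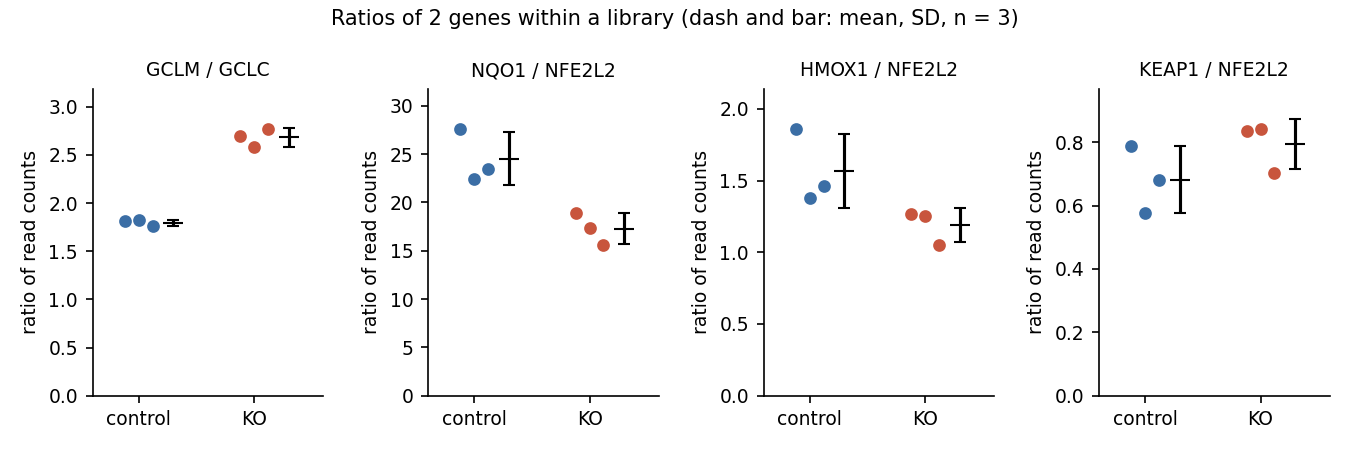
Ratio of the read counts of 2 genes within each control library (blue) and each FOXC1 KO library (red), on linear axes from 0 with mean and SD. GCLM to GCLC separates the groups with little spread, NQO1 and HMOX1 relative to NFE2L2 are lower in all KO libraries, and KEAP1 to NFE2L2 overlaps.

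Set against the transcript of their regulator in the same library, NQO1 gave 27.6, 22.4 and 23.5 reads per NFE2L2 read in control and 18.9, 17.4 and 15.6 in KO libraries. HMOX1 gave 1.86, 1.38 and 1.46 in control and 1.27, 1.25 and 1.05 in KO libraries. Neither ratio overlapped between the groups. The log2 fold change of NFE2L2 was -0.02, so these ratios mostly repeat the differences of NQO1 and HMOX1 and are a description only. The ratio of KEAP1 to NFE2L2 reads, 0.681 ± 0.106 in control and 0.793 ± 0.0786 in KO libraries (SD, n = 3), did overlap. The 7 target genes together amounted to 5326.6 to 5524.0 CPM in control and 4008.7 to 4327.6 CPM in KO libraries. NQO1 and TXNRD1 made up 90.2% of that sum in control and 87.3% in KO libraries on average, so the sum mainly follows these genes.

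Levels of different genes were compared per length, as TPM, a length-scaled share of all transcripts computed over the union of annotated exons. In control libraries NQO1 was highest at 3447.1 ± 97.9 TPM (SD, n = 3), followed by TXNRD1 at 1285.9 ± 45.6 and HMOX1 at 283.2 ± 22.5 TPM. GCLM (84.2 ± 8.3 TPM), KEAP1 (79.4 ± 5.93 TPM) and SLC7A11 (69.9 ± 7.93 TPM) followed, and neighbours in this order overlapped in range. GCLC (29.6 ± 3.14 TPM) and NFE2L2 (28.1 ± 2.35 TPM) also overlapped each other. SRXN1 was lowest at 3.72 ± 0.504 TPM. That level and rank are uncertain. Most SRXN1 exon bases in the annotation used here are shared with ENSG00000270299, and reads there may not have been counted. KO libraries gave the same order except that NFE2L2 (28.0 ± 2.35 TPM) stood above GCLC (25.8 ± 2.93 TPM), again with overlapping ranges. With the length of the longest transcript NFE2L2 was 58.9 TPM and stood above SLC7A11 (50 TPM) and GCLC (48.2 TPM), so the order of the lower genes depends on the gene model.

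The pattern of the called members over the 6 libraries was compared with 13334 tested genes whose mean CPM reached 1, as the root mean square difference of mean-centred log2 CPM. Those nearest to NQO1 were CNDP2 (0.032), AAMDC (0.0349) and LCP1 (0.035), with log2 fold changes of -0.54, -0.46 and -0.48. Those nearest to HMOX1 were CTDSP1 (0.0102), FAM234A (0.0229) and TNFRSF14 (0.0279), with log2 fold changes of -0.40, -0.43 and -0.42. None of these 6 genes was in the antioxidant lists. Those lists name 91 genes against 13334 searched, so a match was unlikely in any case.

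To describe the surrounding pathway, 91 further genes were placed in 9 lists by role. Of 86 tested, 8 were called lower and 10 higher, and their median log2 fold change was 0.01. Among all tested genes 8.39% were called lower and 7.57% higher. Those shares stand beside each list count below, and the counts are a description only. Among 12 tested regulators and partners of NRF2 none was called in edgeR, while 3, namely NFE2L3, BACH1 and MAFF, had an unadjusted p under 0.05, which 39.8% of all tested genes had. MAFF, a small MAF partner, had a log2 fold change of 0.37 (adjusted p 0.00213), and BACH1, the repressor that competes at the ARE and holds HMOX1 down, 0.21 (adjusted p 0.092). CUL3, MAFG and SQSTM1 had log2 fold changes of -0.10, 0.00 and -0.08, with adjusted p of at least 0.331.

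The ferritin genes of iron storage were lower in KO libraries, as HMOX1 was, and a link between them was not tested. Of 10 tested genes of haem and iron handling, 2 were called lower and none higher, with a median of -0.22. FTL and FTH1 encode the light and heavy chains of ferritin, which store the iron that haem oxygenase frees. FTL, the gene with the most CPM of all tested genes in control libraries, fell in KO libraries, from 7559.2 ± 616.0 to 4919.9 ± 254.7 CPM (SD, n = 3), which is -0.62 as log2 fold change (edgeR, SE 0.080 and adjusted p 5.3e-07). FTH1 fell in KO libraries, from 3475.8 ± 157.7 to 2352.3 ± 191.9 CPM (SD, n = 3), which is -0.56 as log2 fold change (edgeR, SE 0.077 and adjusted p 1.42e-06). Both have processed pseudogenes, so their counts depend on how reads with several matches were treated. FECH (-0.28), BLVRB (-0.26) and TFRC (0.22), which encode ferrochelatase, biliverdin reductase B and the transferrin receptor, passed the adjusted p (0.00535, 0.0109 and 0.0204) and not the fold threshold.

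The list named quinone and carbonyl reduction is mixed, and beside reductases holds EPHX1, UGDH, TRIM16, TRIM16L, OSGIN1, PIR, ABCC1, ABCC2 and ABCC3. Of its 18 tested genes, 4 were called lower and 3 higher, with a median of -0.06. AKR1C1 fell in KO libraries, from 52.7 ± 1.12 to 35.9 ± 2.9 CPM (SD, n = 3), which is -0.55 as log2 fold change (edgeR, adjusted p 3.82e-06). AKR1C2 rose in KO libraries, from 8.21 ± 0.566 to 17.0 ± 1.1 CPM (SD, n = 3), which is 1.05 as log2 fold change (edgeR, adjusted p 3.34e-09). These aldo-keto reductases are nearly identical in sequence, so the division of reads between them is uncertain. AKR1C3, of the same list, had 275.3 ± 4.49 CPM in control and 213.6 ± 12.6 CPM in KO libraries (SD, n = 3). Its log2 fold change of -0.37 (edgeR, adjusted p 0.00014) was under the fold threshold. PTGR1, which reduces alkenal double bonds, fell by 0.41 on the log2 scale (edgeR, adjusted p 3.62e-05). TRIM16 and TRIM16L rose by 0.65 and 0.51 (edgeR, adjusted p 6.63e-08 and 2.49e-06). TRIM16L also shares much sequence with TRIM16. Past the 5 with the smallest p, AKR1B10 (-0.78) and EPHX1 (-0.40) were called lower. EPHX1 fell short of the fold threshold without control replicate 1 (-0.29) and without KO replicate 1 (-0.36).

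**Figure D4:**
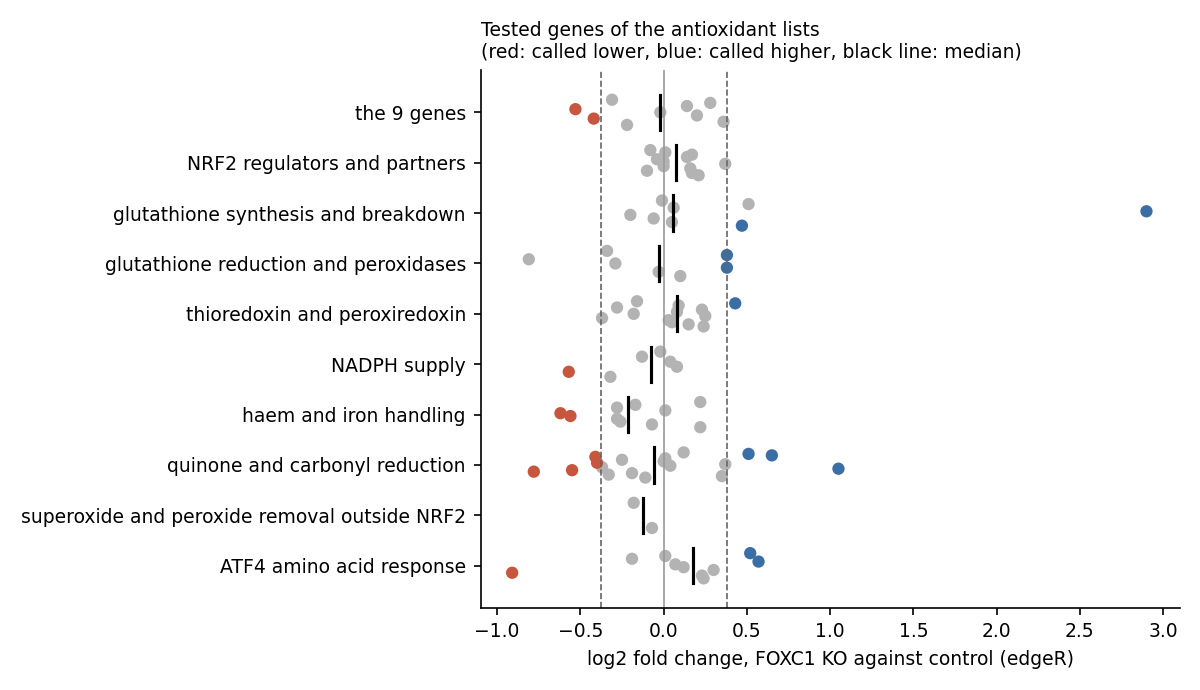
Log2 fold change of the tested genes of the 9 members and of the 9 antioxidant lists, 1 point a gene, with called genes in red (lower) and blue (higher), the median of each list as a black line and dashed lines at 1.3-fold. Points lie on both sides of zero in every list except the superoxide list with 2 tested genes; ferritin chains are the red points in the haem and iron list, and the far right point is GGT5, whose fitted value rests on 1 to 3 counts in the control libraries.

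Supply of NADPH, the reductant that NQO1 and both reductase systems spend, was compared in 6 genes. IDH1, the cytosolic isocitrate dehydrogenase, fell in KO libraries, from 787.8 ± 13.9 to 532.4 ± 32.7 CPM (SD, n = 3), which is -0.57 as log2 fold change (edgeR, SE 0.070 and adjusted p 2.9e-07). PGD (0.04), TALDO1 (-0.13), TKT (-0.02) and ME1 (0.08) had adjusted p of at least 0.17.

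Within the thioredoxin and peroxiredoxin list 1 of 13 tested genes was called. TXNRD2, the mitochondrial thioredoxin reductase, rose in KO libraries, from 16.0 ± 0.576 to 21.6 ± 0.813 CPM (SD, n = 3), which is 0.43 as log2 fold change (edgeR, adjusted p 0.000433). TXN, the thioredoxin that TXNRD1 recharges, had a log2 fold change of -0.28 (adjusted p 0.00332). PRDX5 (-0.37), PRDX6 (0.25) and PRDX1 (0.24), all peroxide-removing enzymes, passed the adjusted p in opposite directions and not the fold threshold.

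Of 7 tested genes of glutathione reduction and peroxidases, 2 were called higher and none lower. GPX8 and GPX3, which encode glutathione peroxidase family members, were called higher with log2 fold changes of 0.38 each (adjusted p 0.00015 and 0.00562 in edgeR), close to the threshold, and each kept its call in 7 of 12 alternatives. GSR, the glutathione reductase, had a log2 fold change of -0.34 (adjusted p 0.000302), and GPX4, which removes lipid peroxides, -0.29 (adjusted p 0.00411). In the list of glutathione synthesis and breakdown 2 of 8 tested genes were called higher. CHAC1, which breaks glutathione down in the cytosol, rose in KO libraries, from 6.11 ± 0.394 to 8.48 ± 0.681 CPM (SD, n = 3), which is 0.47 as log2 fold change (edgeR, adjusted p 0.00287). GGT5 had 1, 3 and 2 counts in control and 11, 20 and 13 in KO libraries, and no fold is given because the controls lie at the counting floor of 3. SOD1 and CAT, the tested genes of superoxide and peroxide removal, had log2 fold changes of -0.18 and -0.07 (adjusted p 0.0628 and 0.505).

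The member SLC7A11 and the glutathione-list gene CHAC1 are targets of ATF4, the factor of the amino acid response. Of 10 tested genes of that list 1 was called lower and 2 higher, with a median of 0.17. ATF4 itself had a log2 fold change of 0.23 (adjusted p 0.00991), under the fold threshold. DDIT3, a stress-induced transcription factor gene, fell in KO libraries, from 80.5 ± 4.03 to 43.0 ± 0.395 CPM (SD, n = 3), which is -0.91 as log2 fold change (edgeR, adjusted p 1.16e-10). SLC1A4, a neutral amino acid carrier, and VLDLR, a lipoprotein receptor, rose by 0.57 and 0.52 (adjusted p 9.09e-06 and 0.000782). PHGDH (0.30) and ASNS (0.24) passed the adjusted p (0.00641 and 0.0138 in edgeR) and not the fold threshold. TRIB3 had a log2 fold change of 0.01 (adjusted p 0.915). By the adjusted p alone 5 of the 10 were higher and 1 lower, against 29.4% of all tested genes in either direction.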

How the data were processed

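RNA-seq libraries of polyadenylated transcripts had been sequenced as paired 75-base reads. The deposited values are unnormalised counts for each gene. The authors used STAR for alignment (hg19) and featureCounts for counting over GENCODE 19. Tool versions, strand and the treatment of reads with several matches are not given in the sources used here. Columns were matched to samples by title, and 0 columns belonged to other samples.

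Symbols, spans and exon lengths came from GENCODE 44 lifted to GRCh37, the assembly of hg19, and 55538 identifiers (96.05%) matched. TXNIP, SOD2 and PECAM1, listed beside the members, had no matching identifier. Sequences were read from GRCh37. Counts were filtered with filterByExpr, scaled with TMM and tested with the robust quasi-likelihood test of edgeR 4.0.16 (R 4.3.3), group being the only term, with Benjamini-Hochberg adjustment over 15647 genes. Calls needed an adjusted p under 0.05 and over 1.3-fold, as in the study's methods, which used DESeq2 (here version 1.42.0, an alternative). SE and 95% intervals were derived from the F statistic. The procedure was tested on simulated counts. Exact permutation tests used log2 CPM.

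The members and lists were chosen with earlier results of these data known. Named were all members, FOXC1, genes overlapping a member, the 3 nearest patterns of each called member and, per list, at most 5 called genes with the smallest p. Other named genes were chosen after their values were seen. Libraries of a group were distinct (chi-square per gene 2.94 to 10.1). Alternatives changed scaling, tool, filter, block, thresholds, gene length or left out a library. The values of 1 listed gene are not reported here.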

Additional observations from a re-analysis of the deposited data

How the results depend on the processing

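NQO1 was called lower under each scaling, tool and filter tried, with the replicate block and without any single library, though not in the direct test against 1.3-fold. Its values ran from -0.56 to -0.49 on the log2 scale. The number of members called lower ranged from 1 to 2 and of members called higher from 0 to 1 over the 6 fits that each left out 1 library. HMOX1 ranged from -0.47 to -0.34 and GCLM from 0.29 to 0.47 over these fits. HMOX1 lost its call without control replicate 1, and GCLM passed the fold threshold without control replicate 2 (0.40), control replicate 3 (0.39) or KO replicate 2.

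With no fold change threshold 4 members were lower and 2 higher, with 17 and 18 genes of the other lists and 2233 and 2372 of all genes. At more than 2-fold 0 members were lower, 0 and 2 genes of the other lists were lower and higher, and 321 and 316 of all genes. In an edgeR test of whether the change exceeds 1.3-fold, 0 members, 4 lower and 3 higher genes of the other lists, and 494 and 516 of all genes passed. NQO1 (-0.53, adjusted p 0.0857) and HMOX1 (-0.42, adjusted p 0.8) did not pass that test. These shifts follow from how the thresholds are built.

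With the longest transcript as length, control levels were 58.9 TPM for NFE2L2, 2897.7 for NQO1, 48.2 for GCLC, 66.9 for GCLM, 1552.5 for TXNRD1, 2.66 for SRXN1 and 50 for SLC7A11.

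Libraries that share a replicate number did not deviate together (r of -0.0271, -0.0718 and 0.0501). Whether the numbers mark a shared culture or preparation is not given in the sources used here. With 3 libraries a group these correlations cannot settle it. With a replicate block NQO1 and HMOX1 were again the 2 members called lower. The median log2 fold change stayed between -0.009 and 0.004 under the other scalings. SRXN1 had the fewest counts of the members, 53 to 75 per library, and the widest interval.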
